A study of Mus musculus with 5 samples.

Results

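The B7 family and CD40 molecules are 8 genes, Cd80, Cd86, Icosl, Cd274, Pdcd1lg2, Cd40, Cd83 and Cd200, whose products on dendritic cells give T cells signals that accompany antigen. They were taken by gene symbol from a table of read counts for 18051 genes, all 8 were found there, and all 8 passed the filter on low counts among 12046 genes tested. The libraries came from the thymus of C57BL/6J mice aged 6 to 8 weeks, either untreated (2 libraries) or taken 4 days after total body irradiation, TBI (3 libraries). Thymi were pooled, and dendritic cells were sorted as CD45+ cells that also carried CD11c and MHC class II. No genetic change was named for either group. Since no label ties each replicate to its own pool of mice, the p-values reflect only the spread among these 5 libraries, which may be technical.

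CD80 and CD86 on a presenting cell bind CD28, which costimulates T cells, and CTLA-4, which restrains them, while ICOS ligand (Icosl) binds ICOS. PD-L1 (Cd274) and PD-L2 (Pdcd1lg2) bind the inhibitory receptor PD-1, and PD-L1 also binds CD80 on the same cell. CD40 receives CD40 ligand from T cells and signals through TRAF adaptors and NF-kB, CD83 is a maturation marker that stabilises CD86 and MHC class II at the surface, and CD200 signals to an inhibitory receptor on myeloid cells. In the thymus these molecules on dendritic cells are known for their part in negative selection and in the generation of regulatory T cells.

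The libraries held 7227000 to 8428589 counts, and levels are given as CPM, counts scaled to a common library total with TMM factors, in which 1 count was worth 0.123 to 0.145. Genes of the sort (Ptprc for CD45, Itgax for CD11c, and the MHC class II genes H2-Aa, H2-Ab1 and Cd74) were present in every library, with a summed level of 55070 to 56028 CPM in untreated and 38149 to 54138 CPM in TBI libraries, and 3 of the 5 (H2-Aa, H2-Ab1 and Itgax) were lower after TBI. The 2 untreated libraries differed by a chi-square per gene of 4.89, where 1 is counting error alone. Among TBI libraries, replicate 1 differed most from the rest (23.1 and 27.6, against 9.80 between replicates 2 and 3).

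In GRCm38 the PD-1 ligand genes are neighbours on chromosome 19. Cd274 lies at 29367455 to 29388095 and Pdcd1lg2 at 29410919 to 29471161, both on the plus strand, with a gap of 22823 bases and 0 annotated genes between them. Cd86 (36603869 to 36666081, minus strand), Cd80 (38455561 to 38496335, plus strand) and Cd200 (45382135 to 45409053, minus strand) lie on chromosome 16. Icosl is on chromosome 10, 78069302 to 78083913, Cd83 on chromosome 13, 43784775 to 43803132, and Cd40 on chromosome 2, 165055627 to 165072948, each on the plus strand. An annotated antisense transcript overlaps Cd274 and another overlaps Pdcd1lg2, and with the strand setting of the counting not stated their reads cannot be told apart from those of the 2 genes.

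RefSeq promoter entries (GRCm38.p6) were matched for 5 of the 8 genes (Cd80, Cd274, Pdcd1lg2, Icosl and Cd200). The 250 bases before the start site are shown for the PD-1 ligand pair and for 1 gene that rose and 1 that fell. Capitals mark matches, on either strand, to the core of the sites of interferon regulatory factors (IRF, AANNGAAA), the STAT site (GAS, TTCNNNGAA) or the kappaB consensus (named only), and no 2 motifs overlapped.
Cd274, chr19:29367188-29367437, plus strand: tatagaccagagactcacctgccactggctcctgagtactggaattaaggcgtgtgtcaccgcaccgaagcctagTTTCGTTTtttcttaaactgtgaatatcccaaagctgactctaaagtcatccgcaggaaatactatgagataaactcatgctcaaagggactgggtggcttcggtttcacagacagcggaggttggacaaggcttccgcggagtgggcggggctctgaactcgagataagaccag
Pdcd1lg2, chr19:29410669-29410918, plus strand: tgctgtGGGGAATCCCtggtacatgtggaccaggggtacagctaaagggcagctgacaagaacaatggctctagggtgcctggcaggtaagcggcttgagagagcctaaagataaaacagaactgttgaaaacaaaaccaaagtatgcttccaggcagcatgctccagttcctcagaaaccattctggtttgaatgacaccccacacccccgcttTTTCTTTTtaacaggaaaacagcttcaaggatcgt
Cd80, chr16:38458683-38458932, plus strand: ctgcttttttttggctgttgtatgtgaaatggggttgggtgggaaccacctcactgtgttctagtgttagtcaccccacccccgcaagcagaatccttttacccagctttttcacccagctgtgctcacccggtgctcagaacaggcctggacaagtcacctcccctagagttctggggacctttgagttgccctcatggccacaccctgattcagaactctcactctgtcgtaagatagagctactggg
Cd200, chr16:45409054-45409303, minus strand: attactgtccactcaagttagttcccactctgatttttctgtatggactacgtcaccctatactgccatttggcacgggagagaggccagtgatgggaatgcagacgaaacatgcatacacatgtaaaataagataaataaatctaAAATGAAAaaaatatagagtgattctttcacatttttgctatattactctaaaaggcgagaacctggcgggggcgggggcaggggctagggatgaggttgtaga

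The IRF core was found at 175 to 168 bases before the start in Cd274, at 35 to 28 in Pdcd1lg2 and at 104 to 97 in Cd200, and 21.3% of 32851 promoters of the same length hold it. Pdcd1lg2 also held the kappaB consensus, on both strands, at 244 to 235 bases before the start. Icosl held it on the minus strand at 111 to 102, and 7.25% of promoters hold it. None of the 5 windows held the GAS letters, which 7.02% of promoters hold, and the window of Cd80 held no match to any of the 3. The Cd80 entry starts at 38458933, downstream of the GENCODE gene start, so its window lies within an intron of a longer transcript. A match describes letters only.

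Of the 8 genes, Cd80, Cd274 and Cd83 rose after TBI, Cd86 and Cd200 fell, and Icosl, Pdcd1lg2 and Cd40 did not pass the test. Cd274 rose 1.75-fold, Cd83 1.63-fold and Cd80 1.61-fold, while Cd86 was 1.55-fold and Cd200 3.29-fold lower. The test was edgeR's quasi-likelihood F-test over all 12046 genes with Benjamini-Hochberg adjustment at 0.05, which called 23.1% of all genes, 13.3% higher and 9.79% lower (1179 genes, or 1780 without TBI replicate 1), with a median log2 fold change of -0.01 over all genes and 0.11 over the 8. Of the called genes 57.6% were higher, and 36.8% when libraries were scaled by their totals alone, which moved the median of all genes to -0.23. The groups did not overlap for the 5 called genes, and over all tested genes this held for 56.1% (27.8% with TBI higher and 28.3% with TBI lower). The 8 genes were chosen with results of these data known, so their counts are a description. RNA from a sorted population cannot tell a change in the number of cells of a type from a change of RNA per cell.

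**Figure D1:**
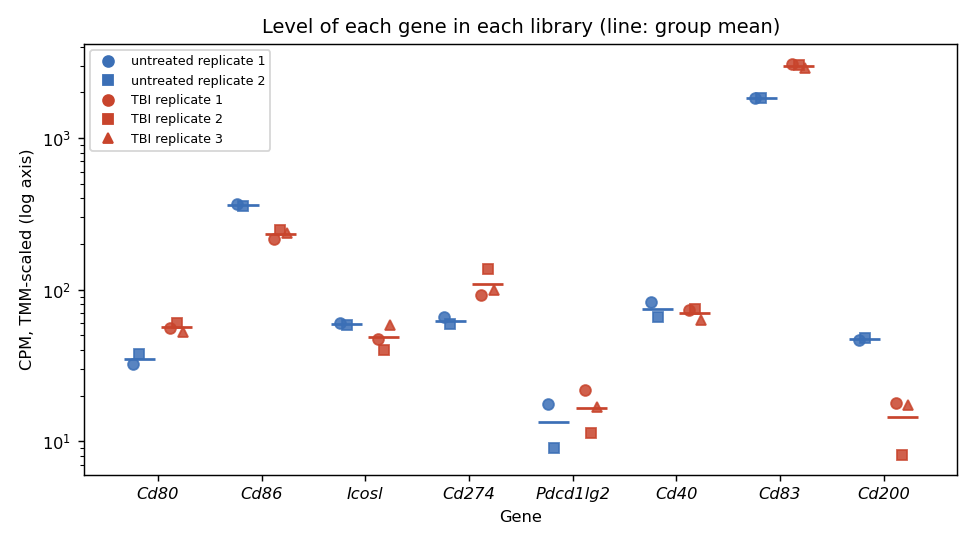
Level of each of the 8 genes in each library in TMM-scaled CPM on a log axis, with untreated libraries in blue, TBI libraries in red, 1 symbol per replicate and a line at each group mean. The groups are apart for Cd80, Cd86, Cd274, Cd83 and Cd200, and they overlap for Icosl, Pdcd1lg2 and Cd40.

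The ligands of CD28 and CTLA-4 moved in opposite directions. Cd80 was at 32.6 and 37.4 CPM in the untreated libraries and at 56.2, 60.5 and 52.6 CPM in the TBI libraries, every one of which lay above both untreated values. Mean levels were 35.0 ± 3.42 CPM in untreated (SD, n = 2) and 56.5 ± 3.94 CPM in TBI libraries (SD, n = 3). The log2 fold change was 0.69 ± 0.17, with the SE derived from the edgeR F statistic, and the edgeR adjusted p was 0.0234. Cd86 was at 365.8 and 358.7 CPM in the untreated libraries and at 215 in TBI replicate 1, 248 in replicate 2 and 236 in replicate 3. All 3 TBI libraries were lower, and the mean went from 362 ± 5.02 to 233 ± 16.3 CPM, with a log2 fold change of -0.64 ± 0.12 (edgeR adjusted p = 0.00712).

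The call of Cd80 was lost without untreated replicate 1 (edgeR adjusted p = 0.275), untreated replicate 2 (0.144) or TBI replicate 2 (0.0708), and when libraries were scaled by their totals alone (0.0794). That of Cd86 was lost without untreated replicate 1 (edgeR adjusted p = 0.0950) or 2 (0.0840), which leaves 1 untreated library. Both kept their direction in all 14 alternatives.

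Icosl, the ligand of ICOS, was at 60.1 and 58.2 CPM in untreated libraries and at 47.1, 40.1 and 58.5 CPM after TBI. TBI replicate 3 lay between the untreated values and the other 2 TBI libraries lay below them. The log2 fold change was -0.28 ± 0.20 (edgeR adjusted p = 0.342), and its 95% interval, -0.73 to 0.17, spans a fall of the size seen in Cd86 as well as no change.

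Of the PD-1 ligands, Cd274 rose and Pdcd1lg2 did not pass. Cd274 (PD-L1) was at 65.9 and 59.3 CPM in untreated and at 92.3, 136 and 99.4 CPM in TBI libraries. All TBI libraries were higher, with TBI replicate 2 the highest. The mean went from 62.6 ± 4.67 to 109 ± 23.7 CPM (log2 fold change 0.81 ± 0.20; edgeR adjusted p = 0.0212). The call was lost without TBI replicate 2 (edgeR adjusted p = 0.0531), without untreated replicate 1 (0.108) or 2 (0.186) and with scaling by totals alone (0.0653).

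Pdcd1lg2 (PD-L2) had the fewest reads of the 8 over all 5 libraries together, though not in TBI replicates 1 and 2, where Cd200 had fewer, with 142 and 72 counts in untreated and 150, 89 and 129 in TBI libraries. These are 17.5 and 9.10 CPM against 21.7, 11.3 and 16.8 CPM, so the lowest value was an untreated library, the highest a TBI library, and the groups overlapped. The log2 fold change was 0.31 ± 0.37 (edgeR adjusted p = 0.586) with a 95% interval of -0.53 to 1.16. Leaving out untreated replicate 1 gave 0.86, leaving out untreated replicate 2 gave -0.08, and leaving out TBI replicate 1 gave 0.08, so 1 library sets its sign. In untreated replicate 1, which had the higher Pdcd1lg2, genes of CCR7-positive mature dendritic cells were also higher than in untreated replicate 2: Fscn1, the actin bundler fascin, was at 215 against 98.0 CPM, and Ccr7, the chemokine receptor for migration, at 624 against 389.5 CPM. Cd40 was higher in that library as well. Cd274, Cd86, Icosl and Cd83 were also higher there, by less, while Cd80 (32.6 against 37.4 CPM) and Cd200 (46.6 against 47.8 CPM) were lower. Relb, in the same list of mature genes, was at 130 CPM in both. The part of mature dendritic cells in the Pdcd1lg2 and Cd40 values was not tested.

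Cd40, the receptor for CD40 ligand, was at 83.5 and 66.5 CPM in untreated and at 73.8, 74.2 and 63.5 CPM in TBI libraries. Untreated replicate 1 was the highest and TBI replicate 3 the lowest, and the groups overlapped. The log2 fold change was -0.09 ± 0.17 (edgeR adjusted p = 0.743), with a 95% interval of -0.48 to 0.30, and it was 0.08 without untreated replicate 1.

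Cd83 gave the most reads of the 8, with 14952 and 14479 counts in untreated and 21419, 23993 and 22044 in TBI libraries. Its level was 1845 and 1831 CPM in untreated and 3095, 3037 and 2879 CPM in TBI libraries. Replicates lay close together, with a coefficient of variation of 3.73% over the TBI libraries, and the groups were far apart. The log2 fold change was 0.71 ± 0.10 (edgeR adjusted p = 0.00163), and the call held in all 14 alternatives, including each library left out, with values of 0.48 to 0.75.

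Cd200, the ligand of the inhibitory CD200 receptor, was at 46.6 and 47.8 CPM in untreated and at 17.8, 8.10 and 17.2 CPM in TBI libraries. Every TBI library was lower, and TBI replicate 2, with 64 counts against 123 and 132, was the lowest. The mean went from 47.2 ± 0.807 to 14.4 ± 5.44 CPM (log2 fold change -1.72 ± 0.32; edgeR adjusted p = 0.00543). The call held in all 14 alternatives, with values of -1.95 to -1.43, the last without TBI replicate 2. Cd200 also varied most among the TBI libraries, with a coefficient of variation of 37.8%, against 31.4% for Pdcd1lg2, 21.7% for Cd274, 19.1% for Icosl and 3.73% to 8.64% for the other 4.

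**Figure D2:**
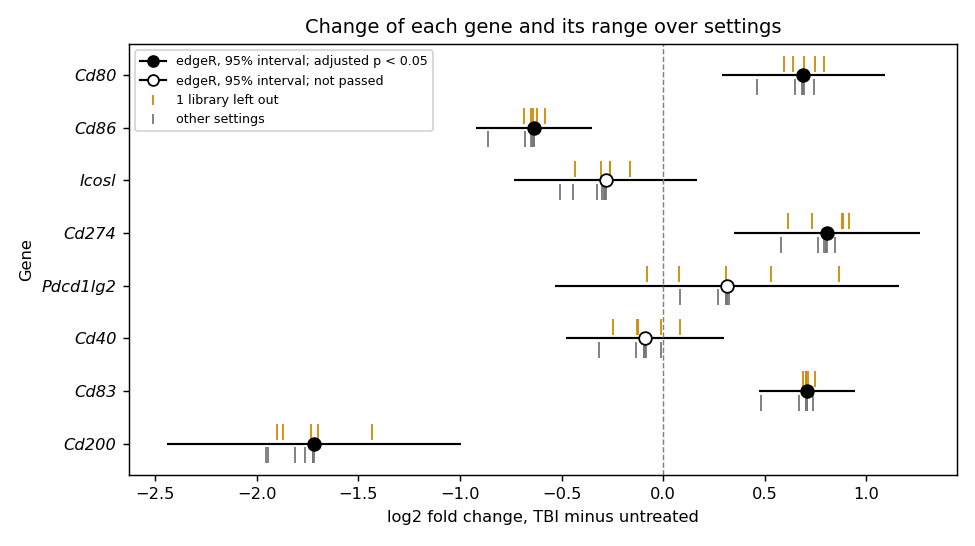
Log2 fold change (TBI minus untreated) of each gene from edgeR with a 95% interval derived from its F statistic, filled where the adjusted p passed 0.05. Values after leaving out 1 library are in orange above it and values under the other settings in grey below it. Cd83 and Cd200 keep their sign and call at every mark, while the marks of Pdcd1lg2 and Cd40 fall on both sides of 0.

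Divided by the merged exon length of each gene, levels can be compared between genes. Cd83 was the highest in both groups, with 715 ± 4.02 CPM per kb in untreated and 1168 ± 43.5 in TBI libraries, followed by Cd86 with 98.9 ± 1.37 and 63.6 ± 4.46. In untreated libraries the order went on with Cd40 at 22.03 ± 3.54, Cd274 at 17.3 ± 1.29, Cd200 at 14.2 ± 0.243, Icosl at 12.8 ± 0.297, Cd80 at 9.45 ± 0.925 and Pdcd1lg2 at 6.79 ± 3.04 CPM per kb. Ranges of neighbours did not overlap from Cd83 down to Icosl and Cd80, while the range of Pdcd1lg2 (4.64 to 8.94) overlapped that of Cd80 (8.80 to 10.1).

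After TBI the order below Cd86 was Cd274 at 30.2 ± 6.54, Cd40 at 20.7 ± 1.79, Cd80 at 15.2 ± 1.07, Icosl at 10.5 ± 2.01, Pdcd1lg2 at 8.46 ± 2.66 and Cd200 at 4.33 ± 1.64 CPM per kb. Cd274 moved above Cd40, Cd80 moved above Icosl, and Cd200 went from the fifth place to the last. Icosl (8.69 to 12.7) and Pdcd1lg2 (5.75 to 11.1) overlapped, and the other neighbours did not. With the longest coding length in place of the exon length the order was the same after TBI, and in untreated libraries Icosl and Cd200 changed places.

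Ratios of counts between 2 genes in the same library do not depend on how libraries are scaled. The untreated libraries held 11.2 and 9.57 Cd86 counts for each Cd80 count, and the TBI libraries 3.83, 4.09 and 4.48. The log2 ratio of Cd80 to Cd86 was higher by 1.33 after TBI, a 2.51-fold change, and the groups did not overlap. Cd274 to Cd86 changed by 1.42 (log2 ratios of -2.47 and -2.60 against -1.22, -0.86 and -1.25) and Cd83 to Cd86 by 1.35 (2.33 and 2.35 against 3.85, 3.62 and 3.61). Cd40 was higher relative to Cd86 in every TBI library (-1.54, -1.74 and -1.89 against -2.13 and -2.43). Cd40 alone did not pass (log2 fold change -0.09) while Cd86 fell (-0.64), so this ratio mostly restates the fall of Cd86. Cd200 was lower relative to Cd86 in every TBI library, with a mean difference of -1.16, or -0.74 without TBI replicate 2.

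Cd274 relative to Cd80 had log2 ratios of 1.01 and 0.66 in untreated and 0.72, 1.17 and 0.92 in TBI libraries, which overlapped, with a difference of 0.10. Cd274 relative to Pdcd1lg2 differed by 0.44 and Icosl relative to Cd86 by 0.34, both with overlap. The first was 0.02 without TBI replicate 2, 0.05 without untreated replicate 1, 0.77 without TBI replicate 1 and 0.84 without untreated replicate 2. The second was 0.51 without TBI replicate 2 and 0.21 without TBI replicate 3. For the 5 of 8 pairs without overlap the exact two-sided permutation test over the 5 libraries gave p = 0.2, the smallest that its 10 splits allow, and 0.32 adjusted over the 8 pairs, so this test cannot reach 0.05. All 5 of these pairs share Cd86, which fell itself, so they are not independent. How often other pairs of genes overlap was not tested.

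**Figure D3:**
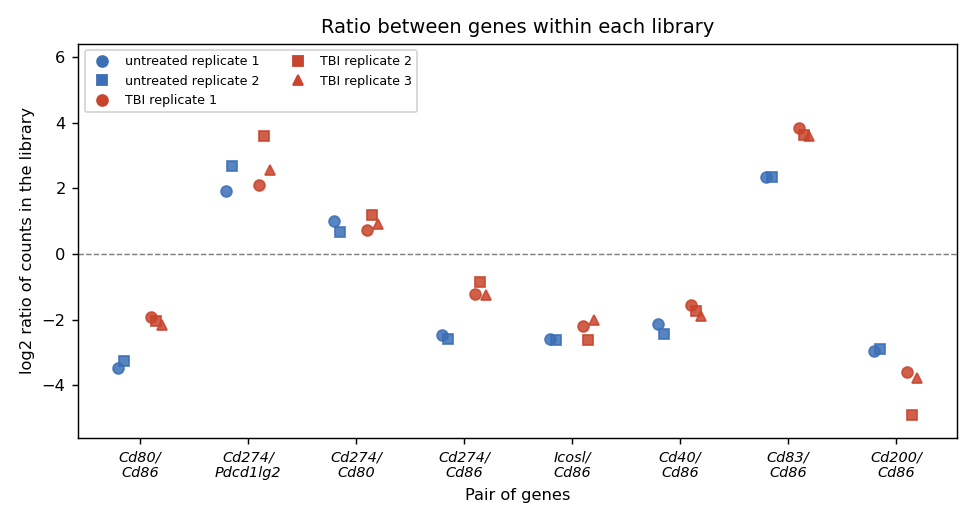
Log2 ratio of the counts of 2 genes in each library for 8 pairs, with untreated libraries in blue, TBI libraries in red and 1 symbol per replicate. Cd80, Cd274, Cd40 and Cd83 stand higher relative to Cd86 in all TBI libraries and Cd200 stands lower, while Cd274 to Cd80, Cd274 to Pdcd1lg2 and Icosl to Cd86 overlap.

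Genes with the most similar profile were found by the root mean square distance between centred log2 CPM values over the 5 libraries, among the genes whose average log2 CPM was 4 or more (7493 for each of the other 7 genes and 7494 for Pdcd1lg2). The 2 nearest were Dhrs7b (0.04) and Ppp3ca (0.05) for Cd80, Trpc4ap (0.02) and Actr5 (0.03) for Cd86, and Ttc14 (0.02) and Dis3l2 (0.04) for Icosl. They were Nod1 (0.05) and Dpysl2 (0.08) for Cd274, Dhx9 (0.04) and Zmym1 (0.05) for Cd40, and Pnp and Olfm1 (0.02 and 0.03) for Cd83. Pdcd1lg2 was nearest to Klrb1b and Ccr7 (both 0.13), and Cd200 to Cd69 (0.10) and Ddr1 (0.12). The 5 libraries fall into 2 groups, and the names are a description.

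Receptors of these molecules were also counted in the sorted cells. Of 10 such genes, which take in Cd200r1, Cd200r2, Cd200r3 and Cd200r4 by name, 9 were tested. Of these 5 were higher (55.6%) and 1 was lower (11.1%), against 13.3% and 9.79% of all tested genes. Ctla4, the inhibitory receptor for CD80 and CD86, went from 27.4 and 36.7 CPM to 158, 124 and 124 CPM (log2 fold change 2.08 ± 0.20), while Cd28, the costimulatory receptor for the same ligands, went from 232 and 194 to 90.0, 88.1 and 91.2 CPM (-1.25 ± 0.13). Icos rose from 34.8 and 33.1 to 117, 96.1 and 108 CPM (1.65 ± 0.16), and Cd200r1, the CD200 receptor, from 29.1 and 27.2 to 117, 76.8 and 83.7 CPM (1.72 ± 0.22). Named after their values were seen, Cd200r4 (2.14 ± 0.31) and the CD40 ligand gene Cd40lg (1.19 ± 0.36) were the other higher genes of this list. Whether CD200 binds the product of Cd200r4 was not tested. Pdcd1, which encodes PD-1, was at 48.0 and 53.2 CPM against 68.5, 61.0 and 92.7 CPM and did not pass (edgeR adjusted p = 0.0978). Ctla4, Icos, Cd28 and Cd40lg are known mainly from T cells. In the same libraries 1 of 9 T cell markers was higher (Cd3g, 0.57 ± 0.17) and 5 were lower. The 9 markers summed to 2443 to 2770 CPM in untreated and 1579 to 1748 CPM in TBI libraries. The lower ones were Cd8a (-2.54 ± 0.23), Cd8b1 (-2.06 ± 0.24), Tcf7, Rag1 and Bcl11b. Within the sum, Cd8a went from 521 and 508 to 90.0, 114 and 60.5 CPM. Whether Cd8a and the other lower genes were read in T cells or in dendritic cells was not tested. Cd3d, Cd3e and Lck did not pass, with log2 fold changes of 0.07, 0.005 and 0.04. Of 8 natural killer cell markers 8 were higher. The part of these cells in the receptor values was not tested.

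Other molecules that costimulate or restrain T cells from the presenting side were listed apart. Of 14 such genes 12 were tested, and 7 were higher (58.3%) and 0 lower by edgeR, against 13.3% and 9.79% of all tested genes. At an unadjusted p under 0.05 0 were lower, as by DESeq2 or limma-voom, and the median log2 fold change was 0.76. The adhesion ligand Icam1 went from 305 and 335 to 875, 823 and 810 CPM (1.39 ± 0.12). The TNF family ligands Tnfsf9 (4-1BB ligand), from 33.3 and 26.8 to 189, 124 and 152 CPM (2.36 ± 0.22), Tnfsf4 (OX40 ligand), from 2.47 and 2.53 to 25.7, 18.99 and 28.7 CPM (3.28 ± 0.31), and Tnfsf8 (CD30 ligand, 2.95 ± 0.39) were each higher in all TBI libraries. Lgals9, Tnfsf14 and Cd48 were the other 3, named after their values were seen. Whether the 14 genes differ from the 8 was not tested. Of 8 other B7 and butyrophilin genes 7 were matched in the table and 3 of these had enough reads to test. Vsir, which encodes the inhibitory molecule VISTA and is listed under its older symbol, rose from 160 and 171 to 290.3, 361 and 368 CPM (1.04 ± 0.15; edgeR adjusted p = 0.00160), and Cd276 (0.83 ± 0.44) and Btnl2 (0.61 ± 0.67), named after their values were seen, did not pass.

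Genes that carry the CD40 signal were called about as often as all genes (4 of 21, against 23.1%). Of these 21 genes for TRAF adaptors, NF-kB subunits and their regulators, 4 were higher and 0 lower by edgeR, with a median log2 fold change of -0.19. At an unadjusted p under 0.05 2 were lower, DESeq2 called 1 lower and limma-voom 0, and 5 were lower when libraries were scaled by totals alone. Those that rose were the NF-kB regulator Bcl3 (1.18 ± 0.13), the inhibitor Nfkbia (0.99 ± 0.13), the ubiquitin ligase Birc3 (0.59 ± 0.15) and Tank, a TRAF-binding adaptor (0.63 ± 0.17). Without TBI replicate 1, 5 were higher and 3 lower, and without any 1 of the other libraries 2 were higher.

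Of 18 genes for interferon and interleukin-4 signals that induce PD-L1 and PD-L2, and for the PD-L1 partners Cmtm4 and Cmtm6, 3 were higher and 5 lower, with a median of -0.12. These are 16.7% and 27.8%, against 13.3% and 9.79% of all tested genes. Il4ra, the interleukin-4 receptor, rose from 213 and 223 to 368, 505 and 500.1 CPM (1.07 ± 0.17), and Ifngr1, the interferon gamma receptor chain, from 534 and 568 to 822, 871 and 925 CPM (0.66 ± 0.12). Jak2, a kinase of that receptor, fell from 203 and 192 to 91.6, 121 and 102 CPM (-0.92 ± 0.15). Irf2 was the other higher gene (0.92 ± 0.18), and Socs1 (-0.70 ± 0.19), Tyk2 (-0.61 ± 0.18) and Stat2 (-0.86 ± 0.26) were among the other lower ones, named after their values were seen. Leaving out 1 library gave 2 to 5 higher and 1 to 6 lower: 5 were higher without TBI replicate 1, 3 were lower without TBI replicate 2 or 3, 1 without untreated replicate 1 and 2 without untreated replicate 2. The rise of Cd274 stood beside higher Ifngr1 and Il4ra and lower Jak2 in the same libraries.

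**Figure D4:**
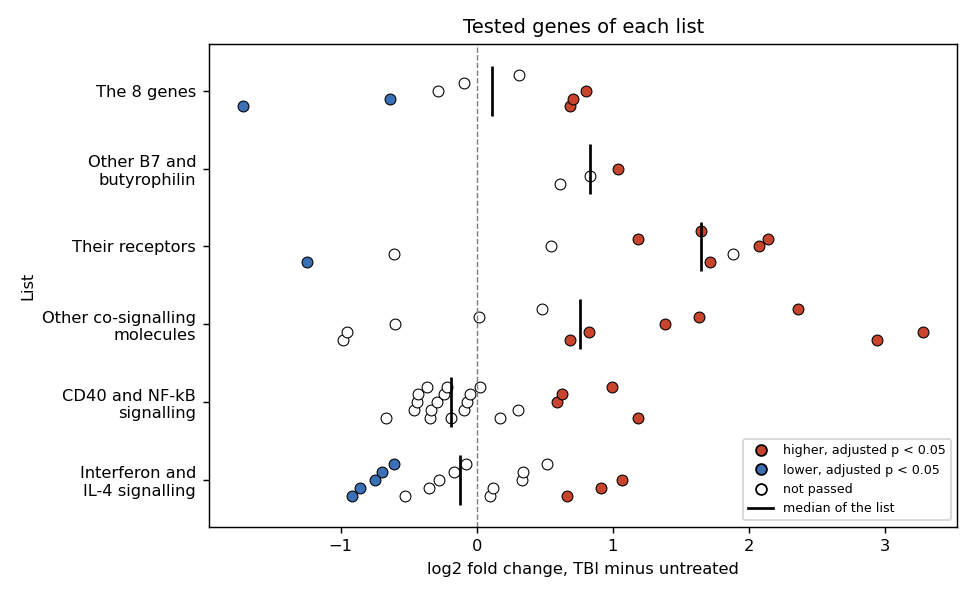
Log2 fold change (TBI minus untreated) of the tested genes of each list, red where higher and blue where lower at an adjusted p under 0.05, white where not passed, with a bar at the median of the list. The medians are 0.11 for the 8 genes, 0.83 for other B7 and butyrophilin genes, 1.65 for the receptors, 0.76 for other co-signalling molecules, -0.19 for CD40 and NF-kB signalling and -0.12 for interferon and interleukin-4 signalling.

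Markers of dendritic cell types changed in the same libraries, where 13.3% of all tested genes were called higher and 9.79% lower. Type 1 dendritic cell markers fell (7 of 8 lower, summed level 3176 to 3317 CPM in untreated and 676 to 851 CPM in TBI libraries), as did plasmacytoid markers (8 of 8 lower, 3320 to 3390 against 439 to 549 CPM). Of 7 tested type 2 markers 5 were higher and 0 lower (1112 to 1232 against 2955 to 3512 CPM). Sirpa (0.51 ± 0.23) and Irf4 (-0.54 ± 0.28) did not pass, and Irf4 was lower in every TBI library. Itgam rose most in that list, from 121 and 151 to 857, 1435 and 1232 CPM. Of 10 genes of CCR7-positive mature dendritic cells, which are known for high levels of costimulatory molecules, 4 were lower and 1 higher. Their summed level, 1523 and 917 CPM in the untreated libraries and 1166, 900 and 996 CPM in the TBI libraries, overlapped. Within that list Il12b (-3.68 ± 0.41), Cacnb3 (-2.27 ± 0.32), Ccl22 (-1.95 ± 0.40) and Fscn1 (-1.92 ± 0.37) fell, and Anxa3 rose (1.57 ± 0.28). Ccr7, at 624 and 390 CPM in untreated and 706, 517 and 667 CPM in TBI libraries, did not pass (0.31 ± 0.22, edgeR adjusted p = 0.340). It was the largest part of the sum in every library. The overlap of the sum thus does not show that the other genes kept their level.

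Lists for cells outside the dendritic lineage moved with the group too, and whether dendritic cells carried some of these genes was not tested. Over all tested genes 13.3% were higher and 9.79% lower. All 10 macrophage markers were higher (2861 to 3387 against 23145 to 24626 CPM), with Adgre1 at 2.68 ± 0.13 and Mertk at 2.03 ± 0.38. Of 7 tested monocyte markers 4 were higher and 2 lower (2585 to 3072 against 29406 to 34848 CPM). The lower ones were Ly6c2 (-1.30 ± 0.34) and Plac8 (-0.76 ± 0.18). Most of the monocyte sum was Lyz2, at 2159 and 1681 against 31750, 27098 and 23935 CPM. Of 8 tested B cell markers, in cells that also carry CD86, CD40 and CD83, 6 were higher (108 to 133 against 325 to 483 CPM). Pax5 had 0 counts in both untreated libraries and 4, 2 and 1 in the TBI libraries, too few to test. Natural killer cell markers summed to 63.6 to 64.2 against 1135 to 1471 CPM. Of 6 tested endothelial and mesenchymal markers, the former in cells that carry CD200, 3 were lower and 2 higher (139 to 161 against 57.1 to 81.6 CPM), and Tie1 and Pdgfra were at 0 in every library. Of 6 tested thymic epithelial markers 1 was lower (54.8 to 57.4 against 36.3 to 44.5 CPM). Endothelial, mesenchymal and thymic epithelial cells lack CD45, for which the sort selected, and how far the sort removed them was not tested. Cdh5 went from 23.8 and 25.5 to 0.867, 0.886 and 0.392 CPM, and Col3a1 from 0 and 0.126 to 23.8, 10.4 and 19.7 CPM. The part of any of these cell types in the changes of the 8 genes was not tested.

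**Figure D5:**
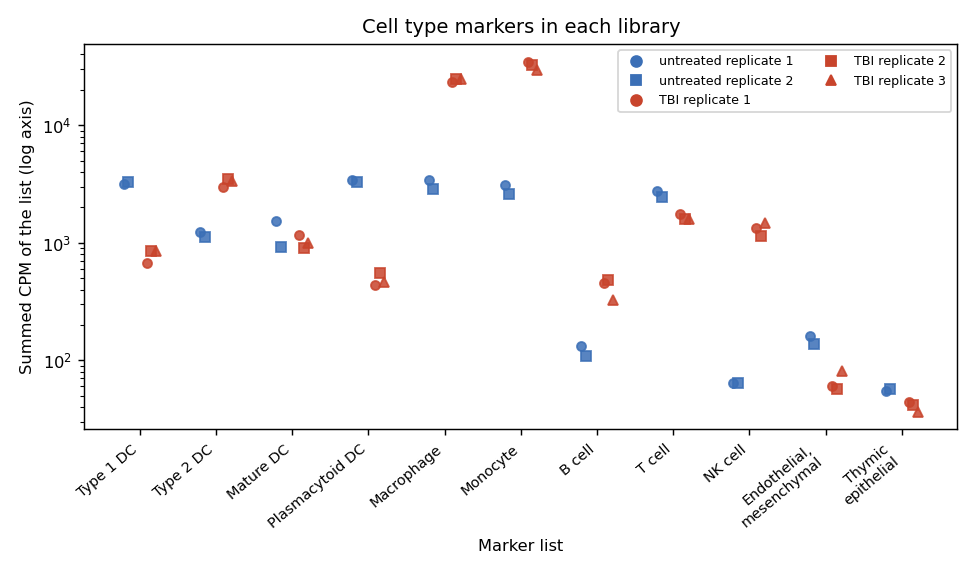
Summed CPM of each cell type marker list in each library on a log axis, with untreated libraries in blue, TBI libraries in red and 1 symbol per replicate. Macrophage, monocyte, B cell and natural killer cell lists are higher in all TBI libraries, and type 1 and plasmacytoid dendritic cell lists are lower. The mature dendritic cell list, whose largest part is Ccr7, overlaps.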

How the data were processed

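RNA from sorted thymic dendritic cells was sequenced from SMART-Seq v4 libraries, per the labels' protocols. The authors deposited raw read counts for each gene symbol, from reads aligned to mm10 with STAR 2.5.2a and counted with featureCounts 1.6.0, per the submitters' processing notes. The annotation, strand setting and radiation dose are not given in the sources used here. One treatment note names another day than day 4, which titles and treatment tags give. The table held 0 columns of other samples, and 23 symbols turned into dates (0.221% of counts) stayed in totals and tests.

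Counts were tested in R 4.3.3 with edgeR 4.0.16 (TMM, filterByExpr with a minimum count of 10 and total of 15, quasi-likelihood F-test, group as the only term, adjustment over all 12046 genes). The SE was derived as the size of the log2 fold change over the square root of F. The 95% interval is that SE times a quantile of the t distribution. Alternatives used DESeq2 1.42.0, limma 3.58.1, other scalings and filters, a replicate block and each library left out. Functions were tested on simulated data. Ratios added 0.5 to counts. Loci and lengths came from GENCODE M21 (GRCm38, the build also called mm10) and promoters from RefSeq. Figures were drawn with matplotlib 3.10.9. PCR reads without molecular identifiers are not independent molecules.

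The 8 genes and the lists were chosen with earlier results of these data known, and the motifs after the promoters were seen. Named were all 8 genes and up to 4 genes per related list with the smallest p among those called. Where none passed, the 2 most expressed were named. The first 2 of a marker list were named where a result turned on it, and the 2 nearest profiles per gene. Other marker genes were named after their values were seen. A result that the rule would name in the interferon list is not reported here.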

Additional observations from a re-analysis of the deposited data

How the results depend on the processing

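Cd83 and Cd200 kept their direction and call in all 14 alternatives, and Icosl kept its direction without passing in any. With scaling by totals alone, which moved the median of all genes to -0.23, 1 of the 8 genes was higher instead of 3, since Cd80 (0.46) and Cd274 (0.58) no longer passed, 2129 genes in all were lower instead of 1179, and of the CD40 and NF-kB list 2 were higher and 5 lower. In that list 1 was lower with upper quartile scaling or DESeq2 instead of 0.

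Leaving out 1 library at a time gave 810 to 2148 higher and 423 to 1780 lower genes in all, and 1 to 3 higher and 1 to 2 lower among the 8. An untreated library left out leaves 1, assumed to vary like the TBI libraries. Log2 fold changes then ranged from 0.59 to 0.79 for Cd80, -0.68 to -0.58 for Cd86, 0.61 to 0.91 for Cd274, -0.24 to 0.084 for Cd40 and -0.080 to 0.86 for Pdcd1lg2. Cd40 turned to 0.084 without untreated replicate 1 and Pdcd1lg2 to -0.080 without untreated replicate 2. The log2 ratio of Cd80 to Cd86 changed by 1.22 to 1.44, and that of Cd274 to Cd80 by -0.080 to 0.27, with -0.080 without untreated replicate 2 and -0.023 without TBI replicate 2. The CD40 and NF-kB list had 2 to 5 higher and 0 to 3 lower, and the interferon and interleukin-4 list 2 to 5 higher and 1 to 6 lower. Apart from fewer samples in these fits, the cause was not tested.

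With the replicate number as a block, all 5 called genes still passed (Cd80 0.74, Cd86 -0.65, Cd274 0.85, Cd83 0.74 and Cd200 -1.95), with 1493 higher and 1284 lower genes in all. Deviations from group means of samples with the same number had a correlation of -0.01 in both pairs, against 0.01 in both crossed pairs. The deviations of the 2 untreated libraries mirror each other, so these values cannot tell whether samples share more than a number.

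Per kb of coding length in place of exon length, untreated and TBI levels were 38.1 and 61.5 CPM for Cd80, 391 and 251 for Cd86, 86.5 and 81.3 for Cd40, 71.9 and 126 for Cd274, 17.97 and 22.4 for Pdcd1lg2, 57.4 and 47.2 for Icosl, 3126 and 5109 for Cd83, and 56.6 and 17.2 for Cd200, since coding length leaves out the untranslated exons. Depth limits Pdcd1lg2 (72 to 150 counts per library) and Cd200 after TBI (64 to 132 counts).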
